A study of Rattus norvegicus with 6 samples.

Results

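The oligoadenylate synthetase family is made up of interferon-induced genes, and 6 rows of the gene table carry its symbols: Oas1a, Oas1h, Oas2, Oas3, Oasl and Oasl2. The rows were chosen by gene symbol out of 33565 rows, and 7 symbols had been listed, of which Oas1b has no row under that name. The family was also selected on its fall between control and progesterone in these same libraries, so its values between the groups are given as a description with no test. Primary cardiomyocytes were isolated from hearts of Sprague-Dawley rats on postnatal day 7 and kept in culture with fetal bovine serum. They received control vehicle or 100 nM progesterone, a steroid hormone, for 24 h, and enriched mRNA from 3 samples of each group was sequenced. No genetic change is named for either group. The labels call the samples biological replicates without saying whether they came from separate animals or cultures, so the p-values below rest on the variation among these 3 samples a group, and that variation may be technical.

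Oligoadenylate synthetases are cytosolic sensors of double-stranded RNA, a sign of viral infection. When bound to it they join ATP into short oligoadenylates with an unusual linkage, and these act as messengers of the antiviral response. The genes are classical targets of type I interferon: the receptor (Ifnar1 and Ifnar2) signals through the kinases Jak1 and Tyk2 to a complex with Stat2 and Irf9 that binds the interferon-stimulated response element (ISRE) in promoters. Rodents have many copies of Oas1, which encode small proteins with a single synthetase unit, while Oas2 and Oas3 encode larger proteins with repeated units. Oasl and Oasl2 encode related proteins that carry ubiquitin-like repeats. Enzyme activity was not measured here for any of these proteins.

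Promoter sequences are shown first because the family members differ in them. RefSeq windows on build GRCr8, from 250 bases before to 50 bases after a start site, were found for 6 of the 7 listed symbols, all except Oas2. Each line below holds 100 bases that end just before the start site, except for Oasl2, where they end 72 bases before it. Capitals mark matches to the ISRE core GAAANNGAAA, read on both strands. They lie at chr12:41330366-41330465 (plus strand, Oas1a), chr12:41395853-41395952 (minus strand, Oas1b), chr12:41353992-41354091 (minus, Oas1h), chr12:41439632-41439731 (plus, Oas3), chr12:47356293-47356392 (minus, Oasl) and chr12:47383257-47383356 (minus, Oasl2).
Oas1a: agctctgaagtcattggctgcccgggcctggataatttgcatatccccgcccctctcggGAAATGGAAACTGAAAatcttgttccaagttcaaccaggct
Oas1b: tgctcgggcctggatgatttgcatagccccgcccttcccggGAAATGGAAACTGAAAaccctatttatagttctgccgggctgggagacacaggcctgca
Oas1h: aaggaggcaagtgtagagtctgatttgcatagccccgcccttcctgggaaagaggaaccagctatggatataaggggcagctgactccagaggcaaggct
Oas3: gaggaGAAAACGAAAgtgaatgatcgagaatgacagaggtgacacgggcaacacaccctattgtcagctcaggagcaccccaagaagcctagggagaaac
Oasl: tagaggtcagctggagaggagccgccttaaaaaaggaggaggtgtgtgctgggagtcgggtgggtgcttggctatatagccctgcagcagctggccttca
Oasl2: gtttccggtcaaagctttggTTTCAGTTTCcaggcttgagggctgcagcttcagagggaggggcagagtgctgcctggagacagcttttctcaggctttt

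The ISRE core was found in the windows of 4 of these 6 genes, Oas1a, Oas1b, Oas3 and Oasl2, against 3.92% of all 33469 windows in the table and 2.87% of the 11552 windows of genes tested. Oas1a held 2 overlapping matches, at positions -41 to -32 and -35 to -26, counted from the start site. In Oas1b the overlapping pair lay at -59 to -50 and -53 to -44. Oas3 had 1 match at -95 to -86, and Oasl2 had 1 on the opposite strand at -151 to -142. The windows of Oasl and Oas1h held none, which says only that these letters are not in these 300 bases. The core of the gamma-activated site, TTCNNNGAA, which reads the same on both strands, occurred in Oas1a (-199 to -191) and Oas1b (-213 to -205), against 8.87% of all windows. Neither core was tied to a bound factor by these data.

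**Figure D1:**
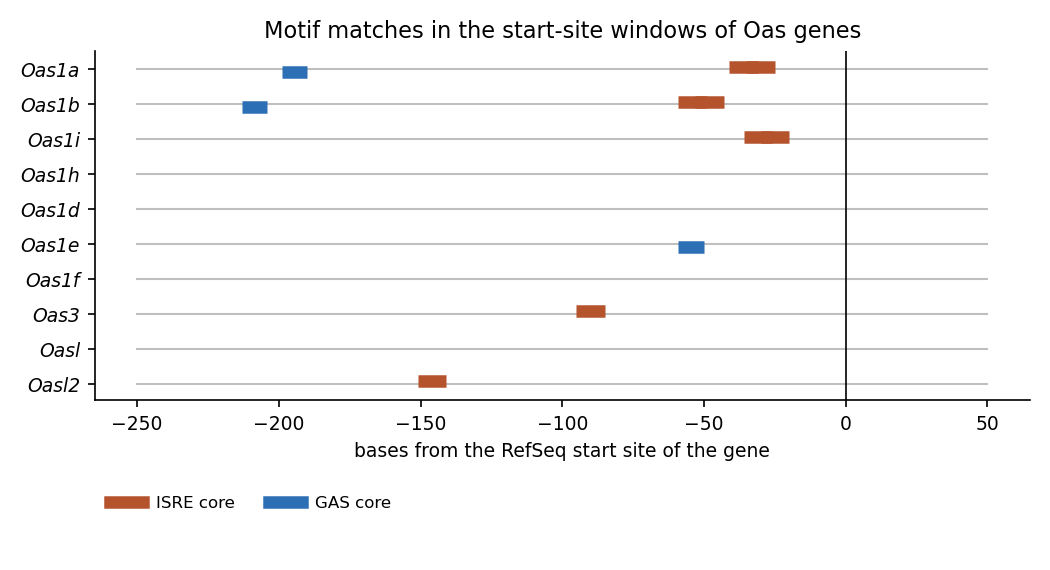
Positions of ISRE core and GAS core matches in the RefSeq windows of 10 Oas genes, in bases from the start site (vertical line), which runs from 250 bases before to 50 after. The ISRE core lies close to the start in Oas1a, Oas1b and Oas1i, farther upstream in Oas3 and Oasl2, and is not seen in the other 5 windows.

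Before the members' values, the libraries were checked. They held between 21156793 and 25376220 counts. Cardiomyocyte markers were strongly read, with 11 of 12 listed genes present, a summed level of 20024 to 20517 CPM (counts scaled to library size by TMM) in the controls and 21565 to 24511 CPM with progesterone. Myh6, the main adult myosin heavy chain of the rodent heart, was at 4384 ± 270 CPM (SD, n = 3) in the controls. Fibroblast markers summed to 27509 to 28600 CPM in the controls and 36939 to 39898 CPM with progesterone. Genes changed in most of the transcriptome, with 63.0% of the 15075 genes tested past an adjusted p of 0.05 (edgeR's quasi-likelihood test, Benjamini-Hochberg adjustment), 31.8% lower and 31.2% higher with progesterone.

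All 6 Oas rows were lower in every progesterone library than in any control library. The same held for 34.8% of the genes tested, and since the family was chosen on this contrast the count is no independent evidence. The 6 rows together took 29940 to 33793 counts in the control libraries and 23 to 43 in the progesterone libraries, or 1302 to 1331 against 1.09 to 2.02 CPM. In bulk samples, fewer cells that express a gene and less RNA per cell cannot be told apart. Of the 6 rows, 5 passed the filter on low counts. Oas1a, Oas1h, Oas2 and Oasl passed through their control counts alone, only Oasl2 had enough counts in both groups, and Oas3 did not pass. Rows that pass in this way had to differ, so the next value describes the 5 rows and supports nothing. The fitted log2 fold change of the 5 had a median of -10.71, also with the rows lacking any progesterone count at their bound, beside 0.00 over all genes tested.

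**Figure D2:**
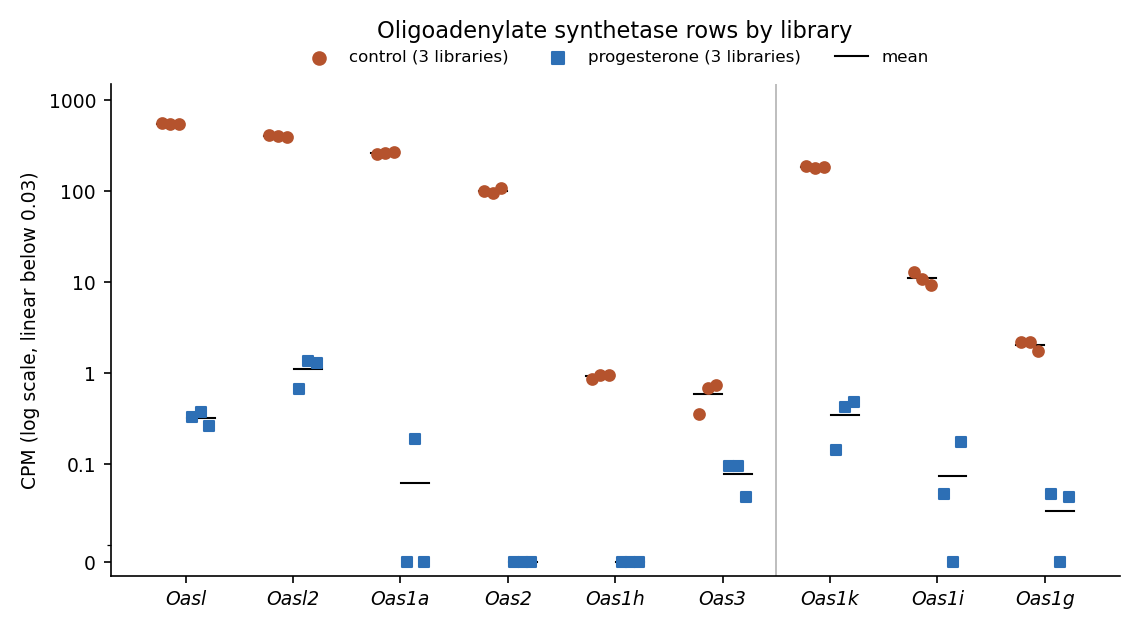
CPM of the 6 chosen Oas rows (left) and 3 further Oas rows (right) in each of the 3 control and 3 progesterone libraries, on a log axis that is linear below 0.03, with bars at group means. Control points of Oasl, Oasl2, Oas1a, Oas2 and Oas1k lie near or above 100 CPM and no progesterone point of any Oas row lies above 1.37 CPM.

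Oasl (ENSRNOG00000001187) had the highest level of the 6 in the controls. Its row lies on chromosome 12, 47444104 to 47456894, minus strand, in a rat build that the sources do not name. It was read 14161, 12612 and 12341 times in the control libraries and 7, 8 and 6 times in the progesterone libraries. Scaled, the controls lay at 558, 541 and 540 CPM and the progesterone libraries at 0.332, 0.377 and 0.26 CPM. The 3 libraries of each group were close to each other, and the groups lay far apart. Over the pooled counts the controls were 1704 times higher (95% counting interval 1115 to 2754, exact binomial). This and the intervals below cover counting error only.

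Oasl2 (ENSRNOG00000028814, chromosome 12, 47469598 to 47482961, minus strand) is the neighbour of Oasl, with 12703 bases between their rows. It had 10530, 9319 and 9042 control counts and 14, 29 and 30 progesterone counts, or 415, 400 and 396 against 0.663, 1.37 and 1.3 CPM. Oasl2 was the row with most of the reads left with progesterone: it held 30.7% of the 6 rows' control counts and 70.9% of their progesterone counts, whereas Oasl went from 41.6% to 20.4% (shares of counts, not scaled to gene length). Its pooled ratio of 362 (288 to 462) was below that of Oasl, and the counting intervals of this pair did not overlap. Those intervals leave out variation between libraries, so this is a description with no test. Scaled to gene length, as deposited FPKM (fragments scaled to gene length and library size), Oasl2 was above Oasl in each of the 3 progesterone libraries (0.237, 0.487 and 0.464 against 0.12, 0.136 and 0.094) and below it in each control library (149, 143 and 141 against 203, 196 and 196).

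Oas1a (ENSRNOG00000001369, chromosome 12, 41200718 to 41211909, plus strand) encodes one of the small synthetases. It was read 6530, 6113 and 6082 times in the controls (257, 262 and 266 CPM). In the progesterone libraries it had 0, 4 and 0 counts, so all remaining reads came from replicate 2. The pooled ratio was 4284 (1673 to 15724). The fitted log2 fold change of -11.94 became -15.57 without progesterone replicate 2, where no count was left, and lay between -11.35 and -11.42 without either of the other progesterone replicates.

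Oas2 (ENSRNOG00000049282, chromosome 12, 41340815 to 41363161, plus strand) had 2541, 2232 and 2436 counts in the controls, or 100, 95.8 and 107 CPM. It had no count in any progesterone library. With the group's pooled count set to 3, the one-sided 95% limit for a count of 0, it was at least 2199-fold lower. This bound has another footing than the two-sided intervals of the other rows. Oas1h (ENSRNOG00000057769, chromosome 12, 41214587 to 41224254, minus strand), a further Oas1 copy, was hardly read even in the controls, with 22 counts in each library (0.866, 0.945 and 0.963 CPM) and none with progesterone, which makes it at least 20.1-fold lower by the same floor. Its depth therefore limits what can be said about the size of the difference.

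Oas3 (ENSRNOG00000059207, chromosome 12, 41316764 to 41336562, plus strand), which encodes the largest synthetase, was read far less in the controls than Oas2, its neighbour 4252 bases away. It had 9, 16 and 17 control counts and 2, 2 and 1 progesterone counts, or 0.354, 0.687 and 0.744 against 0.0947, 0.0941 and 0.0433 CPM. The groups did not overlap, and the pooled ratio was 7.69 (3.05 to 24.9). Its upper limit lay below the lower limits for Oasl2, Oasl and Oas1a. These limits leave out variation between libraries, and the rows were chosen on this contrast, so this order is a description with no test. The control coefficient of variation was 35.4% for Oas3, against 1.75% for Oas1a, 1.77% for Oasl, 2.44% for Oasl2 and 5.4% for Oas2. For Oas1h, also hardly read, it was 5.56%. Counting error is large at counts as low as those of Oas3, so its spread cannot be told apart from its low depth.

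**Figure D3:**
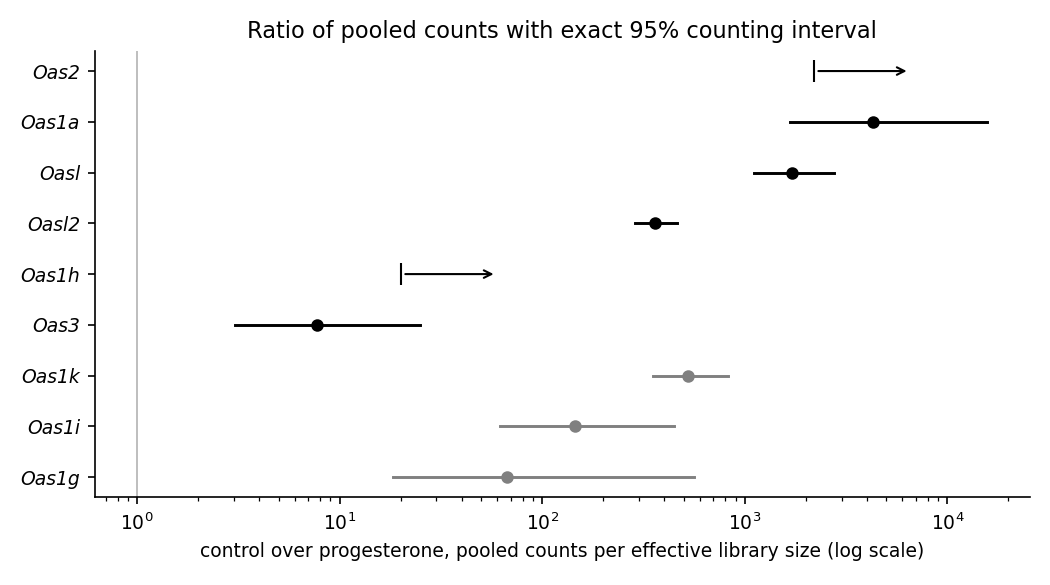
Ratio of pooled control counts to pooled progesterone counts, per effective library size, on a log axis for the 6 chosen Oas rows (black) and 3 further Oas rows (grey), with exact 95% binomial counting intervals. Arrows mark lower bounds for Oas2 (2199) and Oas1h (20.1), which had no progesterone count, and the Oas3 interval ends at 24.9, left of those of Oasl2, Oasl and Oas1a.

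The order of levels across the 6 rows was taken from FPKM. In the controls Oasl was at 198 ± 3.92 FPKM, Oasl2 at 144 ± 3.81, Oas1a at 128 ± 2.03 and Oas2 at 34.5 ± 1.87 (SD, n = 3). Oas1h, at 0.541 ± 0.0291 FPKM, and Oas3, at 0.196 ± 0.0692 FPKM, came last. No neighbours in this order overlapped over the 3 control libraries. Oasl, Oasl2 and Oas1a lay above 97.4%, 96.5% and 96% of the genes tested by their control FPKM, whereas Oas3 lay above 2.53%. Under progesterone the order of FPKM was Oasl2 (0.396 ± 0.138), Oasl (0.117 ± 0.0213), Oas1a (0.0307 ± 0.0532) and Oas3 (0.0255 ± 0.00975), with Oas2 and Oas1h at no count, and the ranges of Oas1a and Oas3 overlapped.

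The table holds 5 more rows with an Oas symbol, all of them Oas1 copies. Of these, 3 passed the filter on low counts, each through its control counts alone. Rows that pass in this way had to differ, so their values are a description with no test. All 3 were lower with progesterone, as 31.8% of all genes tested were at an adjusted p under 0.05. Oas1k fell from 185 ± 4.84 to 0.347 ± 0.18 CPM (log2 fold change -9.02 ± 0.11, SE). Oas1i fell from 11 ± 1.83 to 0.0735 ± 0.0895 CPM (-7.08 ± 0.40). The Oas1i value moved to -8.56 without progesterone replicate 3 and to -6.54 without progesterone replicate 2. Oas1g fell from 2.05 ± 0.258 to 0.0302 ± 0.0262 CPM (-5.83 ± 0.48). Oas1e had 5 counts and Oas1d 2 over the control libraries, and neither had one with progesterone. RefSeq lists Oas1g as another name of Oas1a, although the table has a separate Oas1g row (chromosome 12, 42343123 to 42355131). That row has the gene length (1644 bases) and span (12009 bases) of the Oas1i row, unlike the Oas1a row (2032 and 11192 bases). Whether the Oas1g and Oas1i rows are separate genes was not tested. Reads of near-identical Oas1 copies may have been shared out or lost among these rows. The values of the weaker ones, Oas1h, Oas1i, Oas1g, Oas1e and Oas1d, are therefore uncertain.

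The Oas1k row bears on Oas1b. It spans 79528 bases (41227825 to 41307352), while the other Oas1 rows span between 8939 and 12009 bases, and it contains the whole Oas1e row on the opposite strand. In RefSeq's gene order the symbols run Oas1h, Oas1f, Oas1b, Oas1e, Oas1k and Oas3, and in the table the Oas1k row fills the space between Oas1h and Oas3, where rows named Oas1f and Oas1b are not seen. How the counting treated strand is not stated in the labels. Whether the 13217 control counts of the Oas1k row include reads of Oas1b was not tested, and Oas1b itself is not analysed here by count.

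The Oas1 copies fell into groups by the sequence of their start-site windows. Over the 250 bases before the start, pairs among Oas1a, Oas1b and Oas1i were 67.3% to 86.3% identical, and pairs among Oas1d, Oas1e, Oas1f and Oas1h were 61.4% to 93.2% identical. Pairs across these groups, which were formed after the values were seen, were 46.8% to 54.2% identical, near the 47.9% of Oas1a with Oasl. The 3 copies of the first group held the ISRE core and the 4 of the second group did not. Of those with a row, Oas1a and Oas1i were at 128 and 6.68 FPKM in the controls. Oas1h, Oas1e and Oas1d were at 0.541, 0.0406 and 0.0191 FPKM. The levels of Oas1i, Oas1h, Oas1e and Oas1d are uncertain, since reads of near-identical copies may have been lost. The Oas1e row also lies wholly within the Oas1k row. Whether such losses account for the low levels was not tested. Oas1k and Oas1g, at 35.5 and 1.24 FPKM in the controls, have no window here, so the levels are known beside a window for only 5 Oas1 copies. Across the family the core and the level did not go together, as Oasl, the most highly read, had no match in its window and Oas3, the least read of the 6, had one. Among tested genes that were lower by 8-fold or more, 30.5% of 187 windows held the core, beside 2.87% for all genes tested. That set was picked on this same contrast and includes Oas genes, so it is no independent evidence.

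Beyond the synthetases themselves, a list of 4 genes around the oligoadenylate messengers was read. Of these, 1 was lower, 2 were higher and 1 did not pass (median log2 fold change -0.02), against 31.8% lower and 31.2% higher among all genes tested. Abce1, which encodes a ribosome recycling factor, rose from 137 ± 5.09 to 188 ± 5.8 CPM (1.37-fold, adjusted p = 2.6e-07 by edgeR). Enpp1, a phosphodiesterase of the cell surface that can cleave such messengers, fell from 84.1 ± 4.84 to 50.5 ± 6.25 CPM (1.67-fold, adjusted p = 4e-05). Pde12, a mitochondrial phosphodiesterase that degrades the messengers, rose from 16.1 ± 0.222 to 18.4 ± 0.776 CPM with an adjusted p of 0.033 (edgeR), a call that was lost without any single control replicate (adjusted p = 0.058 to 0.092), without progesterone replicate 1 (0.11) or 2 (0.051), without a filter (0.078) and with DESeq2 (0.098). Akap7, an anchoring protein with a related phosphodiesterase domain, was at 9.62 ± 1.91 and 8.11 ± 0.359 CPM and did not pass (adjusted p = 0.13, and 0.044 without control replicate 3).

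Genes of other nucleic acid sensors and of type I interferon signalling were mostly lower. Of 15 tested sensor genes and their partners 10 were lower, 4 higher and 1 did not pass (median log2 fold change -2.19). Among all genes tested, 31.8% were lower and 31.2% higher. The 10 include Zbp1, which had 3, 0 and 0 progesterone counts and passed the filter through its control counts alone. Dhx58 and Ddx58, RNA helicases of the RIG-I family, fell 265-fold and 53.9-fold, and Ifih1, which encodes the related sensor MDA5, fell 21.4-fold. Eif2ak2, which encodes the double-stranded RNA-activated kinase PKR, fell 7.7-fold from 307 ± 3.69 to 39.9 ± 1.11 CPM, and Adar, an enzyme that edits double-stranded RNA, fell 4.55-fold. Their adjusted p-values were 3.3e-19, 5.3e-18, 6.6e-18, 1.9e-17 and 7e-16 by edgeR, and Tlr3, an endosomal sensor of double-stranded RNA, fell 14.2-fold (adjusted p = 3.3e-14). These changes were below the pooled ratio of Oasl (1704), while that of Dhx58 was of the order of Oasl2 (362).

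In the signalling list, 11 of 12 tested genes fell and 1 rose, with a median of -1.59 on the log2 scale. The shares among all genes tested were 31.8% lower and 31.2% higher. This list and the sensor list were chosen with earlier results of these data known, so their counts are no independent evidence. Ifnb1, which encodes interferon beta, was too low to test, with 9, 4 and 4 control counts and none with progesterone, at least 5.19-fold lower. The receptor genes Ifnar1 and Ifnar2 fell 1.53-fold and 1.77-fold. The kinase gene Jak1 fell from 382 ± 10.5 to 305 ± 8.29 CPM and Tyk2 fell 1.16-fold, the latter not passing under upper quartile scaling (log2 fold change -0.11, adjusted p = 0.13). Stat2 and Irf9, of the complex that binds the ISRE, fell by larger factors, 21.5-fold and 7.45-fold, with adjusted p-values of 3.1e-18 and 2e-16 by edgeR.

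Interferon regulatory factors did not all move in one direction. Irf7, itself induced by interferon, fell 1119-fold (from 2553 ± 43.3 to 2.28 ± 0.318 CPM), Irf1 4.89-fold and Irf2 1.86-fold, whereas Irf3, which is present before infection and acts upstream of interferon, rose 1.2-fold (adjusted p = 0.00035 by edgeR). Of the feedback genes, Usp18, which encodes a protease that restrains the receptor, fell 358-fold and Socs1, an inhibitor of the kinases, 5.42-fold.

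**Figure D4:**
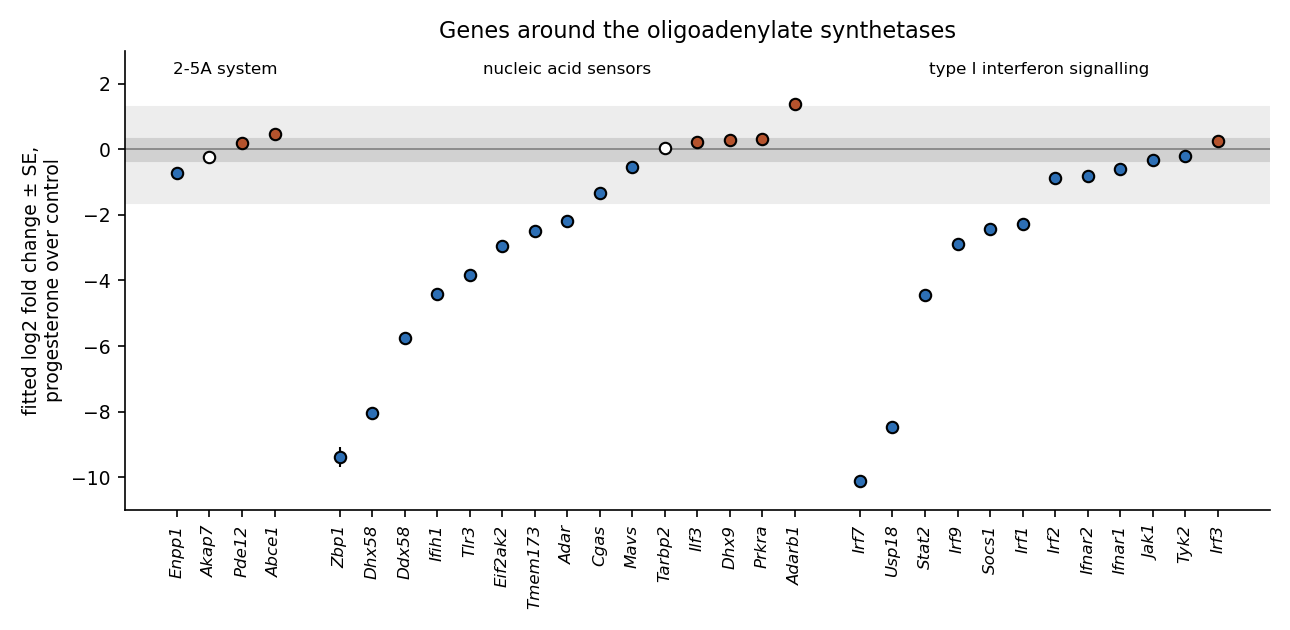
Fitted log2 fold change (progesterone over control) with SE for the 31 tested genes of 3 lists, with filled points past an adjusted p of 0.05 and grey bands for the middle 50% and middle 90% of all genes tested (-0.37 to 0.32 and -1.64 to 1.28). Zbp1, Dhx58, Irf7 and Usp18 lie lowest, and Adarb1 lies highest.

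Within 200 kb of the 6 rows lay 23 rows without an Oas symbol, of which 15 were tested: 4 were lower, 4 higher and 7 did not pass, with a median log2 fold change of 0.03. These counts are near the 31.8% lower and 31.2% higher among all genes tested. The nearest tested row, RGD1311899, lies 5172 bases downstream of Oasl, which is on the minus strand. RGD1311899 rose from 52.8 ± 1.33 to 59.2 ± 0.917 CPM (1.12-fold, adjusted p = 0.0062 by edgeR). On the other cluster, Rasal1, a GTPase-activating protein gene 53056 bases after Oas2, fell from 2.68 ± 0.13 to 0.889 ± 0.105 CPM (3.01-fold, adjusted p = 1.7e-05). Unc119b rose 1.37-fold and Gltp 1.17-fold, while Ankrd13a fell 1.18-fold and Ddx54 1.14-fold. Ddx54 did not pass with upper quartile scaling (adjusted p = 0.15), nor Gltp without control replicate 2 (0.055). None of the 14 windows of 13 neighbouring genes in the promoter table held the ISRE core, beside 2.87% of the windows of genes tested. With a share this low, 14 windows are too few to tell these genes from the rest.

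**Figure D5:**
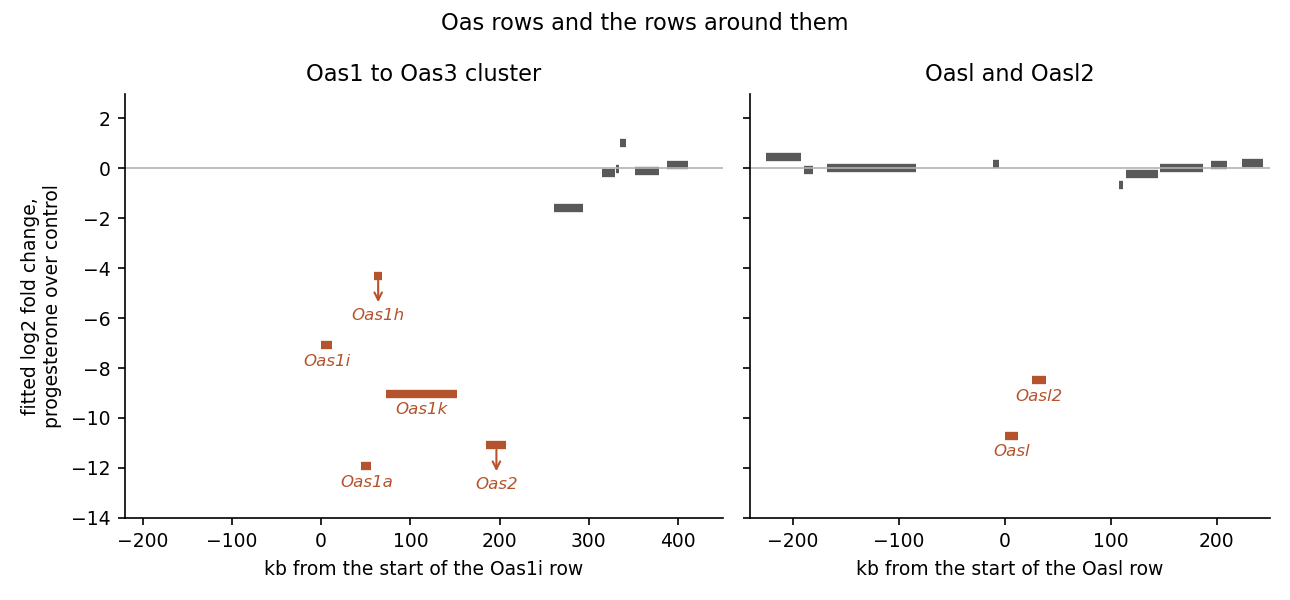
Log2 fold change (progesterone over control) of tested rows against distance in kb from the start of the Oas1i row (left) and of the Oasl row (right), with bar lengths to scale. Oas rows (orange) lie between -4 and -12, with arrows where Oas2 and Oas1h are drawn at their bounds of -11.10 and -4.33, and the other rows (grey) lie between -1.59 and 1.00.

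The genes whose change was most like that of the family were sought over the 6 libraries, as the smallest root mean square difference between log2(CPM + 0.5), less its control mean, and the median of the same over the 5 tested Oas rows, among 7664 genes with at least 20 CPM in the controls. They were Usp18 (0.114), Oas1k (0.158), Gbp2 (0.2) and Gbp5 (0.237), which encode interferon-induced guanylate-binding GTPases, and AABR07025140.1 (0.257), a row with a clone name. Their control means lay between 185 CPM (Oas1k) and 867 CPM (Gbp2), and their progesterone means between 0.347 and 2.76 CPM. The added 0.5 CPM limits falls to near 0. On this scale the median of the Oas rows was -8.44, -7.76 and -7.81 in progesterone libraries 1 to 3, against a fitted median of -10.71. Likeness to the family therefore rests in part on the control level. This is a description over 6 libraries in 2 groups.

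Leukocyte markers were higher in 6 of 7 tested genes and lower in none, and 10 of the 12 listed had a row. Their summed level was 39.8 to 58.3 CPM in the controls and 104 to 115 CPM with progesterone, with Cd3e at 0 in all libraries. Csf1r, a macrophage receptor gene, was at 3.29 ± 1.1 and 16.2 ± 1.39 CPM. Cardiomyocyte markers were lower in 5 and higher in 4 of 11 tested genes, endothelial markers lower in 2 and higher in 1 of 6 (sums of 129 to 171 and 86.4 to 122 CPM), fibroblast markers lower in 3 and higher in 4 of 8, and smooth muscle and pericyte markers higher in 5 of 5 (1062 to 1459 and 3630 to 4132 CPM). Among all genes tested 31.8% were lower and 31.2% higher. The leukocyte list and the smooth muscle and pericyte list held more higher genes than that share, although no test was run on these counts. The other lists moved in both directions, and their counts are too small to be set apart from the share. The part of these shifts in the fall of the Oas rows was not tested.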

How the data were processed

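The 6 libraries, 3 control and 3 progesterone, were grouped by their titles. For each gene the authors deposited a whole-number read count and an FPKM value. Bowtie 0.12.2 and the mouse build mm8 appear in the submitters' processing notes, whereas row identifiers are rat Ensembl ones. No rat build, annotation, counter or strand setting is stated in them. The divisor implied by the deposited FPKM lay between 98.84% and 101.6% of each count total.

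Counts were tested over the whole table with edgeR 4.0.16 in R 4.3.3 (TMM, filterByExpr at 10 counts and 15 in total, robust quasi-likelihood fit, two-sided, Benjamini-Hochberg adjustment over 15075 genes at 0.05). The 682 assembled loci without a gene name, 0.826% to 0.896% of the counts, were kept. The SE was derived from the F statistic. Ratios of pooled counts have exact 95% binomial intervals, and a group with no count was set to 3 counts, a one-sided 95% limit. The fit was also run on simulated counts with a common dispersion, in which few genes changed. That run cannot speak to scaling in data where most genes change. No libraries looked like repeats of each other: chi-square over degrees of freedom was 5.39 to 9.33 within groups.

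Members and lists were chosen with earlier results of these data known. Named were all Oas rows, the genes of the oligoadenylate and signalling lists, up to 6 sensor and 6 flanking genes with the smallest adjusted p, and the 5 genes most like the family. In figures and counts the other list members appear as well. As alternatives, scaling by RLE, by upper quartile and by library size was tried, as were other filters, each replicate left out, a replicate block, DESeq2 1.42.0 and limma 3.58.1 on log2(FPKM + 1) and log2(FPKM + 0.1). Promoter windows were aligned globally with Biopython 1.88 (match 1, mismatch -1). Protein sequences were not used here. In the oligoadenylate and signalling lists, 2 genes are not reported here, and the counts and medians of these lists leave them out.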

Additional observations from a re-analysis of the deposited data

How the results depend on the processing

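The counts of changed genes in all genes tested, in each list and among the flanking rows stayed within 1.5 times the main count under every alternative run. With upper quartile scaling, which shifted the median over all genes by 0.10 (log2), 5843 genes were higher and 3879 lower, against 4707 and 4790, and the flanking rows (Oas copies included) had 8 higher and 4 lower, against 4 and 6. All tested Oas rows were lower under every alternative run. The median log2 fold change of the Oas rows, -10.71, was -9.61 without a filter, where Oas3 enters, -11.32 with at least 1 CPM in 3 samples, where Oas1h leaves, and -9.48 to -10.72 with a replicate left out, since Oas3 enters in 4 of these 6 fits. On the log2(FPKM + 1) and log2(FPKM + 0.1) scales, which understate changes to near 0, it was -5.93 and -8.33. Leaving out a replicate gave 8686 to 9131 changed genes. Samples share only a replicate number (correlation of deviations 0.0492, 0.018 and -0.000936 for numbers 1 to 3), and with the replicate block 9508 genes changed, against 9497. The fitted value of Zbp1 (-9.38) was -12.63 without progesterone replicate 1, which held all its progesterone counts. Depth limits Oas1h and Oas3, with 66 and 42 control counts. The comparison of protein sequences was not run.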
